A study of Mus musculus with 6 samples.

Results

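The genes described here are the ligands and receptors of the 4 classical axon guidance systems, as transcribed in C2C12 cells, an established mouse myoblast line. They were chosen by gene name in the GENCODE M21 annotation, with earlier results of these data known. The set holds every ephrin, Eph receptor, semaphorin, plexin, neuropilin, Slit, Robo, netrin and Unc5 gene with a row in the count tables. This gave 67 of the 23154 genes in the tables, 34 ligands and 33 receptors, and 1 further gene that fits the naming rule, Ntn3, was not analysed here. RNA-seq compared 3 libraries of cells carrying HA-NUR77 with 3 libraries of cells carrying GFP, each library from its own dish. HA-NUR77 is a tagged form of the orphan nuclear receptor encoded by Nr4a1, and GFP is the control protein. Each protein is expressed from a pINDUCER20b construct, which doxycycline switches on, in a stable cell line. All dishes, GFP included, were given doxycycline at 1 µg/mL, 24 hours after seeding, for 18 hours, in medium with fetal calf serum. Since each construct is represented by 1 stable line, the induced protein and other differences between the lines cannot be told apart. The title of the series concerns NUR77 and the factor YY1 in macrophages.

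Axon guidance molecules were named for steering growing nerve fibres, and most are made by many other cells as well. Class 3 semaphorins are secreted and bind neuropilins, which have no signalling domain of their own and rely on plexins to relay the signal, whereas most other semaphorins sit in the membrane and bind plexins directly. Ephrins are membrane-bound ligands of the Eph receptor tyrosine kinases, Slits are secreted ligands of Robo receptors, and netrins are laminin-related ligands of Unc5 and DCC receptors. In skeletal muscle, ephrins, semaphorins and netrins guide motor axons to their targets, and Sema3a is secreted by satellite cells, the stem cells of muscle.

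The libraries held 13906096 to 22821446 counts in HA-NUR77 and 14626157 to 16797515 in GFP. Nr4a1 itself, at 22.5 ± 3.03 CPM (counts scaled to library size with TMM factors) in HA-NUR77 and 20.4 ± 7.43 CPM in GFP (mean ± SD, n = 3 each, as throughout), did not pass the test (edgeR adjusted p = 0.698). The sources used here do not name the species of the inserted NUR77, so Nr4a1 does not check the labels, and every direction below is that of the libraries labelled HA-NUR77. Myoblast genes were abundant in all libraries: Myod1 had 118 ± 6.18 CPM in HA-NUR77 and 91.6 ± 17.9 CPM in GFP, and desmin (Des) had 3298 ± 381 CPM in HA-NUR77 and 2500.0 ± 429 CPM in GFP. Neither Myod1 nor Des passed the test (edgeR adjusted p = 0.0754 and 0.0872). Of 7 myoblast markers 3, Cdh15, Itga7 and Msc, were higher (edgeR adjusted p = 0.0054, 0.00639 and 0.00849) and 0 lower. Msc was scarce, with 29, 49 and 24 reads in HA-NUR77 and 10, 10 and 5 in GFP. It passed the filter on low counts only through the HA-NUR77 libraries. Over all genes tested, 12.4% were higher and 13.2% lower. Myf5 and Ncam1 had negative log2 fold changes (−0.23 and −0.15) and did not pass. The sum of the 7 myoblast markers ran from 1364 to 1554 RPKM (CPM per kilobase of exon) in HA-NUR77 and from 909 to 1199 RPKM in GFP. Genes of differentiating myocytes were abundant too. Their summed level over 14 genes ran from 11670 to 13960 RPKM in HA-NUR77 and from 7504 to 11030 RPKM in GFP, with 3 of the 14 higher and 1 lower. The 1 lower, Myf6, had 9, 8 and 6 reads in HA-NUR77 and 40, 11 and 19 in GFP. Myf6 passed the filter only through the GFP libraries. Among 7 neuronal markers Rbfox3 and Elavl4 had no read, and Snap25, Syt1 and Dcx at most 4 reads in a library. Nefm had 38, 28 and 18 reads in HA-NUR77 and 12, 20 and 26 in GFP (edgeR adjusted p = 0.653). Stmn2 was well detected, with 74.8 ± 10.9 CPM in HA-NUR77 and 84.4 ± 9.14 CPM in GFP. Summed Schwann cell markers stayed at 0.253 to 0.472 RPKM in HA-NUR77 and 0.307 to 0.562 RPKM in GFP, and endothelial markers at 0.174 to 0.276 RPKM in HA-NUR77 and 0.147 to 0.393 RPKM in GFP. Of 6 fibroblast markers 1 was higher and 2 were lower, and their sum ran from 60.3 to 89.4 RPKM in HA-NUR77 and from 60.4 to 76.6 RPKM in GFP. The 1 higher, Dpt, had 20, 24 and 15 reads in HA-NUR77 and 9, 4 and 4 in GFP. Dpt passed the filter only through the HA-NUR77 libraries. Of 6 macrophage markers 2 were tested and 1, Csf1r, was higher, with 36, 29 and 13 reads in HA-NUR77 and 2, 10 and 7 in GFP (log2 fold change 1.71, edgeR adjusted p = 0.0443). Csf1r also passed the filter only through the HA-NUR77 libraries. The macrophage sum was 1.01 to 1.53 RPKM in HA-NUR77 and 0.692 to 1.18 RPKM in GFP.

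Most of the guidance receptors that passed the filter on low counts had less transcript in the HA-NUR77 cells, while the rises were all among semaphorins. Reads of all 67 genes together made up 0.333%, 0.34% and 0.295% of the HA-NUR77 libraries and 0.425%, 0.402% and 0.379% of the GFP libraries, without overlap. Of the 51 genes that passed the filter, 6 rose, 20 fell and 25 did not pass the threshold (adjusted p under 0.05, edgeR's quasi-likelihood test, adjusted over all 12509 genes tested). Over all genes tested, 25.6% passed the threshold, 12.4% higher and 13.2% lower in HA-NUR77. Among the 23 receptors tested, 0 rose and 13 fell (15 lower by DESeq2, which called 15.0% of all genes lower, and 0 higher by either tool), and among the 28 ligands, 6 rose and 7 fell. At an unadjusted p under 0.05, 0 receptors were higher and 16 lower, against 20.3% and 20.3% of all genes tested. By groups that do not overlap, 6 of the 51 genes were higher and 25 lower, against 23.0% and 22.5% of all genes tested. Compared by replicate number, 34 of the 51 genes, 20 of the 23 receptors among them, were lower in HA-NUR77 in every pair and 8 were higher in every pair, against 34.8% and 35.5% of all genes tested. The 1 receptor called higher under any setting was Epha4, without GFP replicate 3 and with the block plus a length and GC correction. Whether receptors and ligands differ was not tested. A change of at least 2-fold was seen in 2 genes that rose, Sema4f and Sema5a, and in 7 that fell, Robo2, Plxna4, Ephb2, Sema3f, Epha7, Plxna2 and Ntn5, against 2.16% and 3.69% of all genes tested. The median log2 fold change (HA-NUR77 over GFP) was −0.46 over the 51 genes and 0.01 over all genes tested. In bulk RNA, fewer cells with a transcript and less of it per cell cannot be told apart.

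Same-numbered libraries of the groups deviated together. Blocking on the replicate number, which leaves 2 residual degrees of freedom, put 9 of the 51 genes higher and 31 lower, with 23.5% and 24.6% of all genes tested. All 26 calls held under this replicate block, and the 14 genes that joined them are given below with their blocked value. Guidance genes are long, with a median exon length of 6855 bases against 4496 for all genes tested, and log2 fold changes were lower in longer genes (Spearman correlation −0.235 over the 12509 genes, which are not independent replicates). With each library corrected for length and GC content, 25 of the 26 calls remained, Sema3a being the exception, with 13.5% of all genes higher and 11.9% lower, and the median over the 51 genes was −0.41. The log2 fold change of Slit2 moved from −0.98 to −0.68, of Robo2 from −2.08 to −1.80, of Unc5c from −0.85 to −0.58 and of Sema5a from 1.16 to 1.40. Plxna2 moved from −1.122 to −0.915, short of 2-fold, and Efna2 the other way, from −0.68 to −0.71. Values below are uncorrected unless stated.

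**Figure D1:**
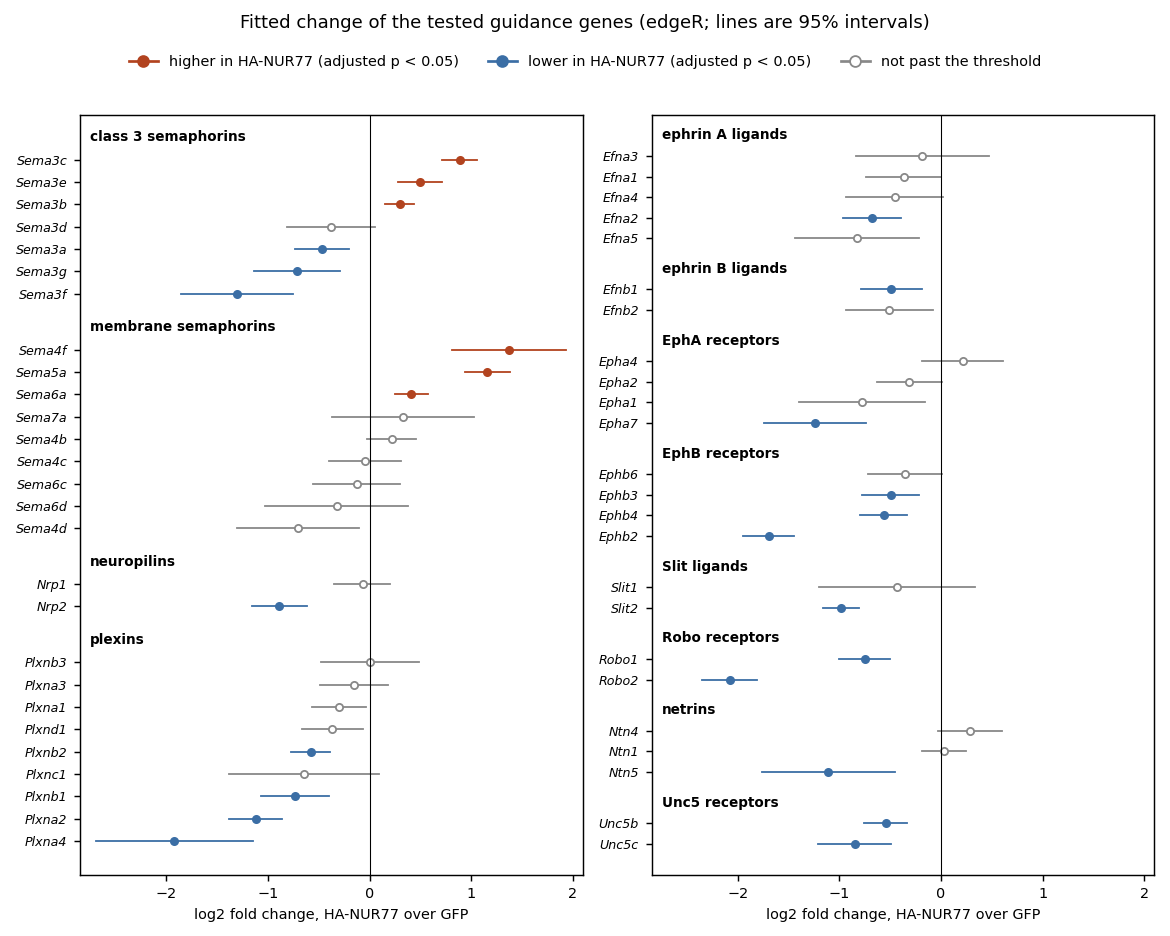
Fitted log2 fold change (x axis, HA-NUR77 over GFP) of the 51 tested guidance genes by family, with 95% intervals as lines. Filled points passed the edgeR threshold. The 13 receptors that passed all lie left of 0, from −2.08 for Robo2 to −0.50 for Ephb3, and the 6 genes to the right that passed are semaphorins.

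Of the 4 Slit and Robo genes tested, 3 fell and 1, Slit1, did not pass. Slit2, a secreted repellent of axons and migrating cells (chromosome 5, 47983138 to 48307733, plus strand), had 64.4, 62.7 and 56.1 CPM in the HA-NUR77 libraries and 126, 119 and 117 CPM in the GFP libraries. The groups lay far apart relative to their spread (log2 fold change −0.98, SE 0.08, edgeR adjusted p = 0.00025). Robo2 (chromosome 16, 73891839 to 74411825, minus strand), a receptor of Slits, showed the largest fall of all 51 genes, with 14.2, 11.9 and 11.6 CPM in HA-NUR77 against 60.0, 49.4 and 50.3 CPM in GFP. That is a 4.23-fold fall (log2 fold change −2.08, SE 0.12, edgeR adjusted p = 9.51e-05). The related receptor Robo1, its neighbour on the chromosome at a distance of 846 kb and on the other strand, had 95.9, 82.9 and 72.9 CPM in HA-NUR77 against 150.3, 143 and 132 CPM in GFP. It fell 1.69-fold (log2 fold change −0.75, SE 0.11, edgeR adjusted p = 0.00337), and no HA-NUR77 library reached the lowest GFP library for any of these 3 genes. On the per-length scale Robo1 remained the more abundant receptor, at 5.08 ± 0.698 RPKM in HA-NUR77 and 8.57 ± 0.574 RPKM in GFP, and Robo2 stood at 0.740 ± 0.0823 RPKM in HA-NUR77 and 3.13 ± 0.348 RPKM in GFP. Slit1 was scarce, at 1.33 ± 0.587 CPM in HA-NUR77 and 1.74 ± 0.316 CPM in GFP, and did not pass the test (log2 fold change −0.43, 95% interval −1.20 to 0.34, adjusted p = 0.362). Slit3 and Robo4 had no read in any library, which allows at most 0.0536 CPM over the HA-NUR77 libraries and 0.0647 CPM over the GFP libraries (3 counts of each group's sum, counting error only). Robo3 had 1 read, in GFP.

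The start-site sequences of Slit2 and Robo2, a ligand and a receptor that fell, and of Sema5a and Sema4f, the rises of at least 2-fold, are shown to compare the promoters of genes that moved in opposite directions. Each is 100 bases of RefSeq sequence (GRCm38.p6) from directly before the first annotated exon, 5′ to 3′ on the gene's strand. They lie at chr5:47983038-47983137, plus strand, for Slit2, chr16:74411826-74411925, minus strand, for Robo2, chr15:32244710-32244809, plus strand, for Sema5a, and chr6:82939770-82939869, minus strand, for Sema4f. Capitals mark CG pairs and, in Slit2, also a TATAAA box.
Slit2: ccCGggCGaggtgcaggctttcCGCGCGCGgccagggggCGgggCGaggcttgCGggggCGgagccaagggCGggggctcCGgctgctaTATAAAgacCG
Robo2: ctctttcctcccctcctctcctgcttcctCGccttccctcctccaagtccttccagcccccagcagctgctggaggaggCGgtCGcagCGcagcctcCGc
Sema5a: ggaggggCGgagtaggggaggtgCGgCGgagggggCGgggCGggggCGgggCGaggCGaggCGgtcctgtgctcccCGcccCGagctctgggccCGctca
Sema4f: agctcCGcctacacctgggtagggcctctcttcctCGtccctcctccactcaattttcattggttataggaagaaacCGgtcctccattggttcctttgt
These stretches hold 13, 5, 12 and 3 CG pairs in that order, with a high and a low count in either direction of change. The TATAAA of Slit2 begins 28 bases before the RefSeq start. RefSeq promoters (250 bases before to 50 after the start) matched 58 of the 67 genes, 74 promoters in all, with a median GC content of 64.2% against 52.7% for all 32851 promoters. TATAAA on either strand was in 2 of the 74 (2.7%), those of Slit2 and Efnb2, and in 13.6% of all promoters. The NR4A monomer element AAAGGTCA, on either strand, was in 0 of the 74 and in 1.51% of all promoters, and the YY1 core AAGATGGC was in 2 (2.7%), those of Plxnb3 and Sema4d, and in 2.75%. The E-box CAGCTG, which reads the same on both strands and is bound by myogenic factors, was in 12 (16.2%) and in 16.3% of all promoters. None of these motifs contains another. These are matches of letters in short windows and no record of binding.

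Both tested Unc5 receptors fell, and of the 3 netrins tested 1 fell and 2 did not pass. Ntn1, the founding netrin, had 112, 128 and 121 CPM in the HA-NUR77 libraries and 106, 129.5 and 119.5 CPM in the GFP libraries, with full overlap. Its log2 fold change was 0.03 (95% interval −0.18 to 0.24, edgeR adjusted p = 0.823). Ntn4, a netrin of basement membranes, stood at 61.8 ± 6.14 CPM in HA-NUR77 against 50.7 ± 8.98 CPM in GFP (log2 fold change 0.28, adjusted p = 0.156), and was higher with the replicate block (adjusted p = 0.00259 with the block). Ntn5 fell 2.16-fold on few reads, with 36, 24 and 18 reads in HA-NUR77 and 41, 42 and 56 in GFP (log2 fold change −1.11, SE 0.28, edgeR adjusted p = 0.0261). Its call was lost without HA-NUR77 replicate 2 or 3 or GFP replicate 2 or 3 (adjusted p = 0.0579 to 0.07). The receptors Unc5b and Unc5c carry a death domain and mediate repulsion by netrins. Unc5b had 90.0, 95.8 and 78.8 CPM in HA-NUR77 and 129.6, 137 and 119.9 CPM in GFP, a 1.46-fold fall (log2 fold change −0.55, SE 0.09, edgeR adjusted p = 0.00613). Unc5c had 32.2, 34.3 and 24.3 CPM in HA-NUR77 against 63.9, 53.6 and 47.0 CPM in GFP, a 1.80-fold fall (log2 fold change −0.85, SE 0.15, edgeR adjusted p = 0.0089), and neither gene's groups overlapped. Corrected for length and GC content, Unc5b had an edgeR adjusted p of 0.00658 and Unc5c of 0.0438. Unc5a and Unc5d were dropped by the filter, with 4 and 5 reads over the HA-NUR77 libraries and 8 and 1 over the GFP libraries.

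**Figure D2:**
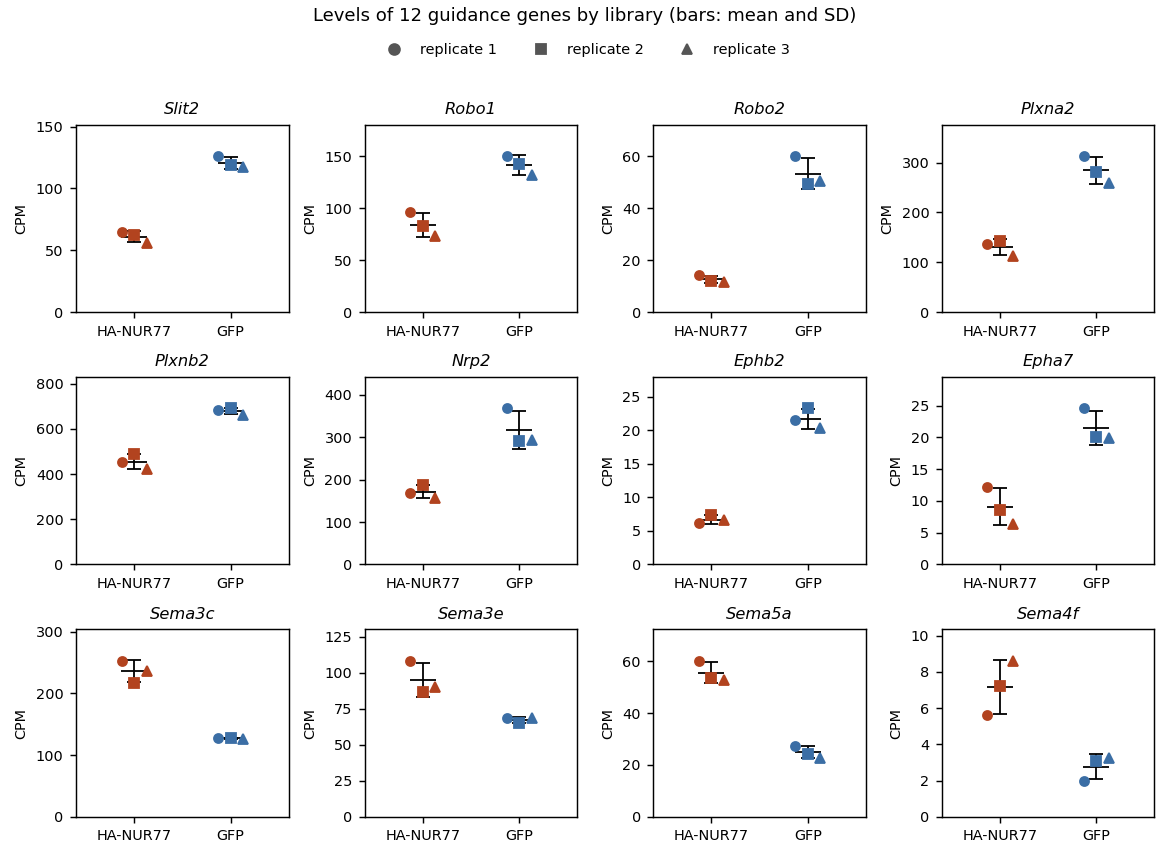
Level of 12 guidance genes in each library (y axis, CPM from 0; symbols are replicates 1 to 3, black marks the mean and SD). All 12 genes were picked from those that passed the edgeR threshold. The HA-NUR77 and GFP libraries do not overlap in any panel, which follows largely from this choice. Of the 51 tested genes 20 overlapped, and of all genes tested 23.0% were higher and 22.5% lower without overlap. The 8 genes of the upper rows are lower in HA-NUR77, as in Robo2 (12.6 ± 1.40 CPM in HA-NUR77 against 53.2 ± 5.91 CPM in GFP). The 4 semaphorins of the bottom row are higher, as in Sema5a (55.5 ± 4.05 CPM in HA-NUR77 against 24.9 ± 2.38 CPM in GFP).

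Semaphorin genes split, with 6 of 16 tested higher and 3 lower in HA-NUR77. Sema3c, a secreted semaphorin that acts through both neuropilins, was the most abundant of them per kilobase in the HA-NUR77 cells. It had 253, 217 and 237 CPM there and 128, 128 and 127 CPM in GFP, a 1.85-fold rise (log2 fold change 0.89, SE 0.07, edgeR adjusted p = 0.000351). Per kilobase it was the second most abundant of the 67 genes in HA-NUR77 (33.0 ± 2.50 RPKM) and stood at place 11 in GFP (17.8 ± 0.0996 RPKM). Sema3e, which binds Plxnd1 without a neuropilin, had 108, 86.8 and 89.8 CPM in HA-NUR77 and 68.2, 65.0 and 68.6 CPM in GFP and rose 1.41-fold (log2 fold change 0.50, SE 0.09, edgeR adjusted p = 0.00972). Sema3b had 108, 112 and 108 CPM in HA-NUR77 against 89.7, 86.5 and 90.8 CPM in GFP. This was a small rise of 1.23-fold with very little spread (log2 fold change 0.29, SE 0.06, edgeR adjusted p = 0.0125), and its call was lost without HA-NUR77 replicate 1 or GFP replicate 2 (adjusted p = 0.0509 and 0.05).

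The other secreted semaphorins went the other way or did not pass. Sema3a, the classical collapsing factor of growth cones and a ligand of Nrp1, had 35.7, 29.4 and 30.8 CPM in HA-NUR77 and 46.8, 38.0 and 47.7 CPM in GFP, a 1.38-fold fall (log2 fold change −0.47, SE 0.12, edgeR adjusted p = 0.0236). The call of Sema3a was lost with correction for length and GC content (log2 fold change −0.19, adjusted p = 0.147) and without HA-NUR77 replicate 2 or 3 or GFP replicate 1 or 3 (adjusted p = 0.0575 to 0.0881). Sema3f, a ligand of Nrp2, was scarce and fell 2.47-fold, with 17, 28 and 14 reads in HA-NUR77 and 37, 37 and 45 in GFP (log2 fold change −1.30, SE 0.24, edgeR adjusted p = 0.00839). Sema3g stood at 2.63 ± 0.354 CPM in HA-NUR77 against 4.31 ± 0.476 CPM in GFP and fell 1.64-fold (adjusted p = 0.0257), a call lost without HA-NUR77 replicate 1 or GFP replicate 1 or 2 (adjusted p = 0.0601 to 0.0941). Sema3d had 107, 78.0 and 106 CPM in HA-NUR77 against 150.2, 95.5 and 133 CPM in GFP and did not pass (log2 fold change −0.38, adjusted p = 0.165), although each HA-NUR77 library lay under the GFP library of the same number, and it was lower with the block (adjusted p = 0.000272). Sema3d, Sema3a, Sema3e and Sema3c lie in this order on the plus strand of chromosome 5 within 5.35 Mb, and Sema3b, which rose, lies 72.3 kb from Sema3f, which fell, on the minus strand of chromosome 9.

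Among the 9 membrane semaphorins tested, 3 rose and 0 fell by edgeR, with 1 lower by DESeq2 and 1 lower at an unadjusted p under 0.05. Sema5a, a semaphorin with thrombospondin repeats (chromosome 15, 32244810 to 32696341, plus strand), had 60.2, 53.5 and 52.9 CPM in the HA-NUR77 libraries and 27.5, 24.3 and 22.8 CPM in the GFP libraries, a 2.23-fold rise (log2 fold change 1.16, SE 0.10, edgeR adjusted p = 0.000323). Sema4f had 5.64, 7.21 and 8.62 CPM in HA-NUR77 against 1.96, 3.09 and 3.25 CPM in GFP, the largest rise among the 51 genes at 2.58-fold (log2 fold change 1.37, SE 0.24, edgeR adjusted p = 0.00751). Sema6a, a ligand of Plxna2 and Plxna4, had 239, 228 and 232 CPM in HA-NUR77 and 168, 171 and 188 CPM in GFP and rose 1.33-fold (log2 fold change 0.41, SE 0.07, edgeR adjusted p = 0.00683). For these 3 genes every HA-NUR77 library exceeded every GFP library, and the calls held in all 16 alternative settings. Sema4c, which binds Plxnb2, stood at 18.2 ± 2.45 RPKM in HA-NUR77 and 18.7 ± 3.54 RPKM in GFP, and its log2 fold change was −0.04 (95% interval −0.40 to 0.31, adjusted p = 0.848). Sema4b (38.4 ± 4.53 CPM in HA-NUR77 against 33.1 ± 2.32 CPM in GFP, log2 fold change 0.22, adjusted p = 0.157) and Sema7a, which is anchored in the membrane by a lipid (27.7 ± 9.75 CPM in HA-NUR77 against 22.3 ± 7.05 CPM in GFP, 0.33, 0.442), were higher with the block (adjusted p = 0.0213 and 0.0356). Sema7a was higher in 2 of 3 pairs. Sema4d, the ligand of Plxnb1, stood at 5.26 ± 1.73 CPM in HA-NUR77 against 8.46 ± 1.52 CPM in GFP (log2 fold change −0.70, adjusted p = 0.0825) and was lower with the block (adjusted p = 0.00479) and by DESeq2 (adjusted p = 0.0489). Sema6c and Sema6d did not pass in either fit (log2 fold change −0.13 and −0.32). The filter dropped Sema4g, Sema5b and Sema6b, with 13, 2 and 9 reads over HA-NUR77 and 15, 6 and 5 over GFP, and Sema4a, with 35 reads over HA-NUR77 and 16 over GFP, a depth-scaled ratio of 1.81 (exact 95% interval 0.978 to 3.51, counting error only).

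The receptors of these semaphorins fell or did not pass. Nrp2, a receptor of Sema3f and Sema3c, had 169.5, 188 and 157 CPM in HA-NUR77 and 368, 290.0 and 293 CPM in GFP, a 1.85-fold fall (log2 fold change −0.89, SE 0.12, edgeR adjusted p = 0.00233). Nrp1, a receptor of Sema3a, had 125, 122 and 98.2 CPM in HA-NUR77 against 126, 131 and 106 CPM in GFP, with overlap (log2 fold change −0.07, 95% interval −0.35 to 0.20, adjusted p = 0.687). Per kilobase, Nrp2 was above Nrp1 in both groups, at 14.5 ± 1.31 and 11.8 ± 1.52 RPKM in HA-NUR77 and at 26.8 ± 3.75 and 12.4 ± 1.34 RPKM in GFP (SD, n = 3). Plxna2 (chromosome 1, 194618218 to 194816869, plus strand), which relays both Sema6a and neuropilin signals, had 137, 143 and 112 CPM in HA-NUR77 and 313, 282 and 259.6 CPM in GFP and fell 2.18-fold (log2 fold change −1.12, SE 0.11, edgeR adjusted p = 0.000824). Plxna4, another receptor of Sema6a, was scarce and fell 3.80-fold, with 24, 31 and 9 reads in HA-NUR77 and 88, 69 and 41 in GFP (log2 fold change −1.92, SE 0.33, edgeR adjusted p = 0.0071).

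Plxnb2, the most abundant guidance transcript per kilobase in every library, had 452, 489.6 and 422 CPM in HA-NUR77 and 683, 691 and 663 CPM in GFP. It fell 1.49-fold (log2 fold change −0.58, SE 0.08, edgeR adjusted p = 0.00331) and kept first place, at 58.9 ± 4.35 RPKM in HA-NUR77 and 88.0 ± 1.88 RPKM in GFP. Plxnb1, the receptor of Sema4d, had 29.6, 32.6 and 22.8 CPM in HA-NUR77 against 50.4, 50.1 and 41.4 CPM in GFP and fell 1.66-fold (log2 fold change −0.73, SE 0.14, edgeR adjusted p = 0.0111). Plxna1 stood at 275 ± 35.8 CPM in HA-NUR77 against 338 ± 29.9 CPM in GFP (log2 fold change −0.30, adjusted p = 0.0899) and Plxnd1, the receptor of Sema3e, at 81.5 ± 13.2 CPM in HA-NUR77 against 105 ± 10.7 CPM in GFP (−0.37, 0.072). Both were lower with the block (adjusted p = 0.00139 and 0.00036), and Plxnd1 also by DESeq2 (adjusted p = 0.0399). Plxna3 (log2 fold change −0.15, 95% interval −0.49 to 0.18), Plxnb3 (0.01, −0.48 to 0.49) and Plxnc1 (−0.65, −1.39 to 0.09) did not pass in either fit. Of the 9 plexins tested, 4 fell and 0 rose by edgeR, with 0 higher also by DESeq2, with the block and at an unadjusted p under 0.05.

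Ephrins and Eph receptors moved downward where they passed. Ephb2, a receptor of B-type ephrins (chromosome 4, 136647539 to 136835988, minus strand), had 6.10, 7.34 and 6.61 CPM in the HA-NUR77 libraries and 21.6, 23.3 and 20.3 CPM in the GFP libraries, a 3.24-fold fall (log2 fold change −1.70, SE 0.11, edgeR adjusted p = 0.000141). Epha7, which has A-type ephrins as ligands, had 12.2, 8.56 and 6.39 CPM in HA-NUR77 against 24.6, 20.0 and 19.8 CPM in GFP and fell 2.36-fold (log2 fold change −1.24, SE 0.22, edgeR adjusted p = 0.00759). The highest HA-NUR77 library of either gene stayed under the lowest GFP library. Ephb4, the partner of ephrin-B2 in blood vessels, had 44.3, 49.3 and 40.0 CPM in HA-NUR77 and 70.1, 68.2 and 59.6 CPM in GFP and fell 1.48-fold (log2 fold change −0.56, SE 0.10, edgeR adjusted p = 0.00765). Ephb3 had 40.0, 53.4 and 51.1 CPM in HA-NUR77 against 64.5, 64.8 and 74.6 CPM in GFP and fell 1.41-fold (adjusted p = 0.023), a call lost without HA-NUR77 replicate 1 or GFP replicate 1 or 3 (adjusted p = 0.0514 to 0.0606). Ephb6, a receptor without kinase activity, was the most abundant Eph gene per kilobase, at 29.1 ± 6.34 RPKM in HA-NUR77 and 37.3 ± 2.80 RPKM in GFP. It did not pass (log2 fold change −0.35, 95% interval −0.72 to 0.01, adjusted p = 0.131) and was lower with the block (adjusted p = 0.0141).

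Epha1 (4.08 ± 1.36 CPM in HA-NUR77 against 7.15 ± 1.35 CPM in GFP, log2 fold change −0.78, adjusted p = 0.0662) and Epha2 (31.9 ± 5.81 CPM in HA-NUR77 against 39.9 ± 3.41 CPM in GFP, −0.31, 0.13) were lower with the block (adjusted p = 0.000802 and 0.0147), Epha1 also by DESeq2 (adjusted p = 0.0317). Epha4, which binds ephrins of both types, was the 1 tested Eph gene with a positive estimate, at 15.0 ± 0.720 CPM in HA-NUR77 against 13.0 ± 3.33 CPM in GFP (log2 fold change 0.21, 95% interval −0.19 to 0.61, adjusted p = 0.386). Epha4 was called higher without GFP replicate 3 (log2 fold change 0.43, edgeR adjusted p = 0.032) and with the block and the length and GC correction together (adjusted p = 0.0416). Epha5 and Epha10 had no read, Epha3 had 34 reads over HA-NUR77 and 31 over GFP, Ephb1 5 over HA-NUR77 and 6 over GFP, and Epha6 and Epha8 had 2 reads each, all in GFP. The filter dropped these 6 genes.

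Of the ephrins, Efna2 and Efnb1 fell. Efna2 had 4.14, 4.32 and 4.24 CPM in HA-NUR77 and 6.94, 6.80 and 6.63 CPM in GFP, without overlap (log2 fold change −0.68, SE 0.12, edgeR adjusted p = 0.00839). It was scarce, with 80, 99 and 59 reads in HA-NUR77 and 117, 99 and 98 in GFP. Efnb1, a transmembrane ligand, had 18.9, 23.6 and 17.1 CPM in HA-NUR77 against 26.3, 30.2 and 27.5 CPM in GFP and fell 1.40-fold (log2 fold change −0.49, SE 0.13, edgeR adjusted p = 0.0288). The call of Efnb1 held without HA-NUR77 replicate 2 and was lost without any 1 of the other 5 libraries (adjusted p = 0.0531 to 0.0993). Efnb2, the most abundant ephrin per kilobase (15.6 ± 3.48 RPKM in HA-NUR77 and 22.3 ± 4.0 RPKM in GFP), had 105, 132 and 84.4 CPM in HA-NUR77 against 159, 176 and 123 CPM in GFP. The ranges of Efnb2 overlapped, but each HA-NUR77 library lay under the GFP library of its number, and its log2 fold change of −0.51 had an adjusted p of 0.0788, or 1.68e-05 with the block and 0.0289 by DESeq2. Efna1 (log2 fold change −0.37), Efna4 (−0.46) and Efna5 (−0.83) had adjusted p of 0.123, 0.138 and 0.0541, and 0.043, 0.0219 and 0.00312 with the block, and Efna5 passed by DESeq2 (adjusted p = 0.0372). Efna3 (−0.18, adjusted p = 0.666) lies between Efna1 and Efna4 on chromosome 3, and all 3 fit within 0.0663 Mb on the minus strand. Efnb3 had 22 reads over HA-NUR77 and 31 over GFP and was dropped by the filter.

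Summed over each family per kilobase, plexin transcripts ran from 104 to 129 RPKM in the HA-NUR77 libraries and 159 to 176 RPKM in the GFP libraries. EphB receptors ran from 38.7 to 52.9 RPKM in the HA-NUR77 libraries and 60.7 to 67.0 RPKM in the GFP libraries, neuropilins from 23.3 to 28.3 RPKM in the HA-NUR77 libraries and 35.6 to 44.0 RPKM in the GFP libraries and Robo receptors from 5.10 to 6.64 RPKM in the HA-NUR77 libraries and 10.9 to 12.7 RPKM in the GFP libraries. Each of these 4 receptor families was lower in HA-NUR77 without overlap, as were the EphA receptors, from 8.88 to 12.0 RPKM in the HA-NUR77 libraries and 13.6 to 14.8 RPKM in the GFP libraries, and the Unc5 receptors, from 13.9 to 17.2 RPKM in the HA-NUR77 libraries and 21.7 to 24.8 RPKM in the GFP libraries. Class 3 semaphorins ran the other way, from 75.3 to 85.4 RPKM in the HA-NUR77 libraries and 58.2 to 66.4 RPKM in the GFP libraries, as did membrane semaphorins, from 59.2 to 70.1 RPKM in the HA-NUR77 libraries and 52.0 to 57.6 RPKM in the GFP libraries. Netrins overlapped, from 33.9 to 38.3 RPKM in the HA-NUR77 libraries and 29.2 to 36.8 RPKM in the GFP libraries. The ephrin B sums overlapped narrowly, from 17.6 to 26.2 RPKM in the HA-NUR77 libraries and 26.1 to 34.8 RPKM in the GFP libraries. The summed levels are descriptions without a test, and each is weighted to its most abundant members. The myoblast and differentiating myocyte sums given above were also higher in HA-NUR77 without overlap, and their part in these results was not tested.

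**Figure D3:**
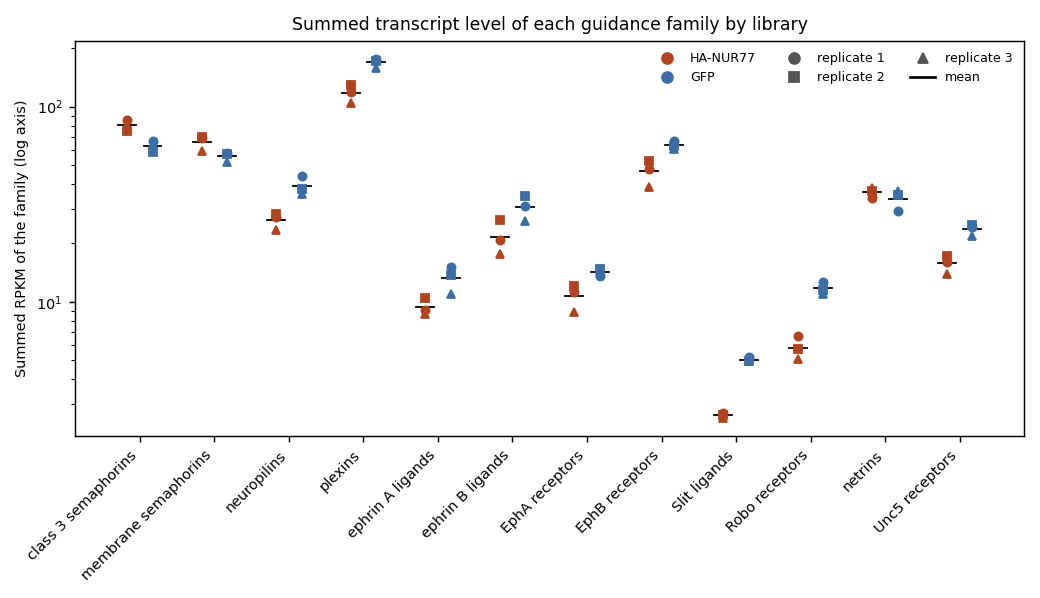
Summed level of each guidance family in each library (y axis, RPKM, log scale; symbols are replicates, black lines are means). All 6 receptor families, the Slits and the ephrin A ligands are lower in HA-NUR77 without overlap, both semaphorin classes are higher without overlap, and the netrins overlap (36.4 ± 2.23 RPKM in HA-NUR77 against 33.8 ± 4.0 RPKM in GFP).

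In order of level per kilobase, the 10 most abundant guidance genes over all libraries were Plxnb2, Plxna1, Ephb6, Sema3c, Sema6a, Sema3b, Nrp2, Ntn1, Efnb2 and Sema4c. In HA-NUR77 the order among them ran Plxnb2, Sema3c, Plxna1, Ephb6, Sema6a, Sema3b, Ntn1, Sema4c, Efnb2 and Nrp2, and the ranges of neighbours overlapped except between Plxnb2 and Sema3c, Sema6a and Sema3b, and Sema3b and Ntn1. In GFP it ran Plxnb2, Plxna1, Ephb6, Nrp2, Efnb2, Sema6a, Ntn1, Sema4c, Sema3b and Sema3c, with overlap of neighbours except between Plxnb2 and Plxna1, Ephb6 and Nrp2, and Sema3b and Sema3c. Nrp2 thus had place 11 of the 67 genes in HA-NUR77 and place 4 in GFP, and Sema3c had place 2 in HA-NUR77 and place 11 in GFP.

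Partners of the guidance receptors were described with a list of 67 further ligands, co-receptors, adhesion molecules and intracellular effectors, of which 65 were in the tables and 57 passed the filter. Of these, 4 rose, 11 fell and 42 did not pass, with a median log2 fold change of −0.09. In all, 26.3% of them were called, near the 25.6% of all genes tested. With the block 10 rose and 23 fell, against 23.5% and 24.6% of all genes tested. Corrected for length and GC content, the list held 8 that rose and 9 that fell, against 13.5% and 11.9% of all genes tested. L1cam, an adhesion molecule of axons that associates with neuropilins, had 65.5, 62.6 and 50.4 CPM in HA-NUR77 against 23.5, 29.3 and 21.7 CPM in GFP, without overlap (log2 fold change 1.26, SE 0.14, edgeR adjusted p = 0.00142). Rgmb, a ligand of neogenin, a relative of DCC, rose 1.79-fold (log2 fold change 0.84, SE 0.10, edgeR adjusted p = 0.00193), and Chn2, a Rac GTPase-activating protein, 1.51-fold (log2 fold change 0.60, SE 0.11, edgeR adjusted p = 0.00979). Draxin, a secreted ligand of netrin receptors, had 7, 6 and 5 reads in HA-NUR77 and 44, 34 and 39 in GFP (log2 fold change −2.95, SE 0.26, edgeR adjusted p = 0.000393). Every HA-NUR77 library lay under the filter's minimum count of 10, so Draxin was tested only because of its GFP reads. Its fall is given with that limit. Enah, an actin regulator downstream of Robo and netrin receptors, fell 1.68-fold (log2 fold change −0.74, SE 0.07, edgeR adjusted p = 0.000484), and Pak3, a kinase activated by Rac and Cdc42, fell 4.05-fold, to 3.75 ± 1.17 CPM in HA-NUR77 against 15.0 ± 3.00 CPM in GFP (log2 fold change −2.02, SE 0.25, edgeR adjusted p = 0.00217). Leaving out HA-NUR77 replicate 1 left 7 of the list lower, in a fit that also called fewer of all genes lower, as given below.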

How the data were processed

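TopHat2 2.1, HTSeq, DESeq2 and build mm10 appear in the processing, per the submitters' processing notes, and per the labels' protocols the libraries were stranded and poly(A)-selected. The authors deposited counts of reads per Ensembl gene, not normalised, 1 table per library; the annotation release and the strand setting of the counting are not given in the sources used here. Overlapping genes may therefore share reads. Symbols, exon lengths (union of exons) and coordinates came from GENCODE M21 (GRCm38), which named 22872 of 23154 IDs.

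In R 4.3.3, edgeR 4.0.16 (quasi-likelihood, robust fit, TMM scaling) was applied to the 12509 genes kept by filterByExpr (minimum count 10), adjusted by the Benjamini-Hochberg method, threshold 0.05. Alternatives were other factors and filters, DESeq2 1.42.0, limma-voom (limma 3.58.1), offsets for length and GC content (mgcv), the replicate block and leaving out each library. Labels number replicates 1 to 3 in both groups; deviations of same-numbered libraries correlated at 0.25, 0.55 and 0.47 across genes, so the pairing rests on the data. The scripts were tested on simulated counts with 200 of 12509 genes changed and no shared replicate effect. Without the block, changes of log2 0.5, 0.75, 1 and 2 were recovered at 48%, 80%, 76% and 88%. Of the 160 calls, 8.75% were false at the threshold of 0.05 on adjusted p. In the data, same-numbered libraries did deviate together and 25.6% of genes were called, so these rates may not carry over. They do not cover the fit with the block. No pair of libraries in a group agreed within sampling noise (chi-square per degree of freedom at least 11.4). Each replicate was its own dish of 1 line, so p-values measure the spread between dishes.

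Members and lists were chosen with earlier results of these data known. Named are all members past the threshold, the 10 most abundant, those whose call changes with the block or DESeq2, and of the partner list the 3 smallest adjusted p in each direction; the others were added after their values were seen, so that each of the 67 genes is accounted for.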

Additional observations from a re-analysis of the deposited data

How the results depend on the processing

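Among the 51 guidance genes tested, RLE, upper-quartile or no scaling factors, a minimum count of 30 and limma-voom each kept the same 26 calls, and with no filter Efna5 was added. DESeq2 added 5, all lower, for 25 lower. With the replicate block 31 guidance genes were lower and 9 higher. It called 2942 of all genes higher and 3071 lower, against 1549 and 1655 without the block. In the partner list it called 10 higher and 23 lower, against 4 and 11 without it. All 26 guidance calls held with the block, and 14 were added. Correction for length and GC content put 8 of the partner list higher. Together with the block it gave 10 guidance genes higher (Epha4 joining, Sema3a lost), 3268 of all genes higher and 2692 lower, and 12 of the partner list higher and 17 lower. Leaving out 1 library each gave 5 to 8 guidance genes higher and 16 to 21 lower, with a median log2 fold change of −0.50 to −0.38. It gave 642 to 1489 of all genes higher and 850 to 1572 lower, and 7 to 12 of the partner list lower. The low counts came from dropping GFP replicate 1 (642 higher, 850 lower), HA-NUR77 replicate 1 (672 higher, 903 lower) or GFP replicate 2 (927 higher). Fits without 1 library turned the sign of 5 of the 51 genes, none of them called by edgeR on all 6 libraries: Nrp1 (log2 fold change −0.161 to 0.031), Sema6c (−0.228 to 0.035), Plxnb3 (−0.114 to 0.129), Ntn1 (−0.045 to 0.102, below 0 without GFP replicate 1 or HA-NUR77 replicate 2) and Sema4c (−0.172 to 0.108, above 0 without GFP replicate 1 or HA-NUR77 replicate 3). Scarce genes such as Sema3f and Plxna4 rest on fewer than 100 reads per library, which limits their precision. The cause of these shifts was not tested.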
